A study of Rattus norvegicus with 88 samples.

Results

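miR-221 and miR-222 are a pair of microRNAs (miRNAs) made from neighbouring hairpins on the rat X chromosome. They were chosen by name, as rno-miR-221 and rno-miR-222 among the miRNA names of the array, and not by any measured value, and these 2 miRNAs are 0.295% of those that the array measured. Whole livers of Fischer 344 rats, given no treatment, were profiled on 88 Agilent arrays for rat miRNAs, with 1 dye and 1 animal to an array. Both sexes were sampled at 9 ages, with 5 animals in each group except 4 for males of 5 and of 104 weeks, which gave 45 female and 43 male arrays. Here 2 weeks is called young, the ages of 5, 6, 8, 15 and 21 weeks adult, and those of 52, 78 and 104 weeks old. The number of arrays limits the precision of every group value.

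A miRNA is a short RNA that guides a silencing complex to messenger RNAs that pair with its seed, the bases near its 5′ end, and lowers their translation or stability. miR-221 and miR-222 are processed from a shared primary transcript, carry the same seed, and are best known for repressing Cdkn1b (p27) and Cdkn1c (p57), inhibitors of the cell cycle. In liver they are known for high levels in hepatocellular carcinoma and in regenerating tissue, and endothelial and stellate cells also make them.

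The mature sequences are shown because the pair is defined by the seed, which is in capitals (bases 2 to 8). They are the RefSeq sequences of the GRCr8 assembly, and a later version of the array design names both miRNAs as the 3p arm.
miR-221-3p: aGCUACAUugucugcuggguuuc
miR-222-3p: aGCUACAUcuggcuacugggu

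The first 8 bases of both were identical, and the same base stood at 11 of the 21 positions that could be compared from the 5′ end. No other of the 693 mature rat miRNAs in the RefSeq table had this seed. The hairpin Mir222 lies on chromosome X at 6022621 to 6022723 and the hairpin Mir221 at 6023182 to 6023290, both on the plus strand, with 458 bases between them. Both lie within the annotated spans of 2 uncharacterized long noncoding RNA genes, LOC120099382 and LOC120099384. The hairpins are shown with the mature 3p arm in capitals, because the array carried separate probes for this arm and for the opposite, star arm.
Mir221: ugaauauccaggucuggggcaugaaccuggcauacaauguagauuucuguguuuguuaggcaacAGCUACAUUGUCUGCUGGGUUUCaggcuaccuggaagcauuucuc
Mir222: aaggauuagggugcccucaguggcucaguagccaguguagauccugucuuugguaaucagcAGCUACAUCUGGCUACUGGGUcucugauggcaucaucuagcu

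The authors deposited, for each array, a total gene signal for each miRNA, which is a background-subtracted intensity that the scanner software builds from 2 probe sequences and 20 spots in the case of miR-221 and of miR-222. Here each signal was divided by the 75th percentile of the expressed miRNAs of its array, which are the 46.4% of all miRNAs that the authors' filter kept, so a normalized intensity of 1 is the level of that percentile. Undetected values stood at 0.0120, the lowest value measured on any array. The 75th percentile itself ran from 28.1 to 289 intensity units over the arrays, and between 134 and 255 miRNAs were detected on an array. The hepatocyte miRNAs miR-122, miR-192 and miR-194 were detected on every adult and old array.

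Only 1 of the 2 miRNAs was measurable. miR-221 was detected on 81 of 88 arrays, and miR-222 on 0 of 88. The star arms, miR-221* and miR-222*, were also detected on 0 of 88 arrays. The scanner software's own detection flag gave the same counts.

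The miR-222 probes stayed near the background at every age in both sexes. The software reports an error with each probe signal, and one miR-222 probe reached at most 1.43 times its error on any array and the other at most 1.11 times. Of 880 spots per probe, 1 and 3 respectively were well above background. A signal of 3 errors, below which a probe is not counted in the total, corresponded to a normalized intensity between 0.0220 and 0.243 (median 0.0797) with the smaller of the 2 probe errors of each array. miR-222 below these values could not be seen, and its level relative to miR-221 could not be given because the 2 miRNAs are read by different probes.

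**Figure D1:**
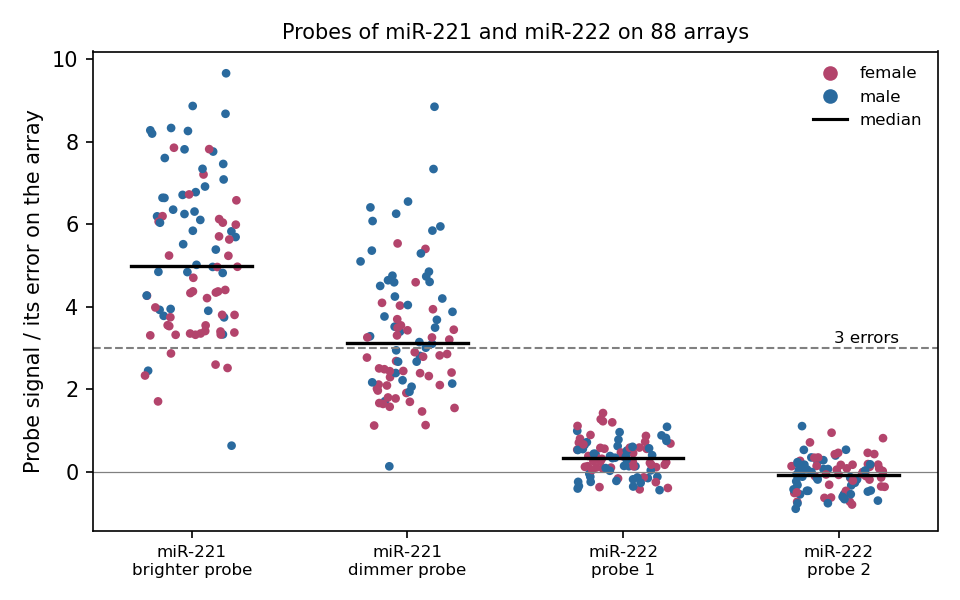
Signal of each probe of miR-221 and miR-222 divided by its error, 1 point for each of the 88 arrays, coloured by sex, with the median as a black line. The dashed line marks 3 errors, which the miR-221 probes passed on 81 and 46 arrays and the miR-222 probes on 0.

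The total signal of miR-221 was not built alike on every array. A probe entered it only where its signal was above 3 errors. Both probes were counted on 46 arrays, the brighter alone on 35, and neither on the 7 undetected arrays. Where only the brighter probe was counted, the dimmer probe reached at most 2.95 errors, and where both were counted it had at least 3.01. The total therefore steps down when the dimmer probe drops out and falls to the floor when both do. The 2 probes rose and fell together over the 88 arrays (Spearman's rho 0.970, a description over arrays that share a scale). For this reason the tests of miR-221 below are also given for the plain sum of both probe signals, at the same scaling, a choice made after the values were seen.

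At 2 weeks miR-221 was low in both sexes. Normalized intensities in females of 2 weeks were 0.173, 0.0819, 0.0966, 0.137 and 0.105. Those in males of 2 weeks were 0.191, 0.141, 0.156 and 0.169, and the array of 2-week male 3 was undetected. The groups overlapped, and the undetected male array had the highest summed signal of its group (0.222) and the lowest 75th percentile of all arrays (28.1).

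From 5 to 21 weeks, all 24 male arrays had detectable miR-221, with values between 0.226 and 0.604. Males of 5 weeks measured 0.512, 0.456, 0.556 and 0.533. Males of 6 weeks measured 0.417, 0.485, 0.604, 0.596 and 0.566. These 9 animals held the highest group means, 0.514 ± 0.0429 (SD, n = 4) and 0.534 ± 0.0805 (SD, n = 5). Males of 8 weeks measured 0.481, 0.523, 0.573, 0.292 and 0.528. Those of 15 weeks measured 0.506, 0.257, 0.463, 0.585 and 0.226, and those of 21 weeks 0.471, 0.364, 0.465, 0.250 and 0.237. The 5 low values of these 3 ages were all read from the brighter probe alone.

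Adult females lay lower, and 21 of 25 arrays had a detectable value. Females of 5 weeks measured 0.146, 0.249, 0.326, 0.242 and 0.133. Females of 6 weeks measured 0.269, 0.165 and 0.135 on 3 arrays and were undetected on the other 2. Every female array of these ages was below every male array of the same age. Females of 8 weeks measured 0.172, 0.179, 0.129, 0.229 and 0.173. Those of 15 weeks measured 0.0883, 0.10, 0.0746, 0.0920 and 0.145. Those of 21 weeks measured 0.104, 0.120 and 0.0815 on 3 arrays and were undetected on 2. At each of these ages, too, no female reached the lowest male.

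In old livers the sexes were apart at 52 weeks and overlapped later. At 52 weeks males still measured 0.250, 0.524, 0.301, 0.301 and 0.179, all above the females with 0.0947, 0.0757, 0.0824, 0.0945 and 0.0981. At 78 weeks males measured 0.282, 0.293, 0.242 and 0.149 with 1 array undetected, and females 0.0934, 0.202, 0.182, 0.112 and 0.163. At 104 weeks males measured 0.272, 0.126, 0.158 and 0.17, and females 0.126, 0.102, 0.115 and 0.285 with 1 array undetected. The groups overlapped at 78 and 104 weeks, where the highest value of 104 weeks belonged to a female. With the sum, 4 of 5 males of 78 weeks (0.219 to 0.293) were above every female (0.147 to 0.202), and the overlap there rested on 78-week male 6 at 0.0634.

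**Figure D2:**
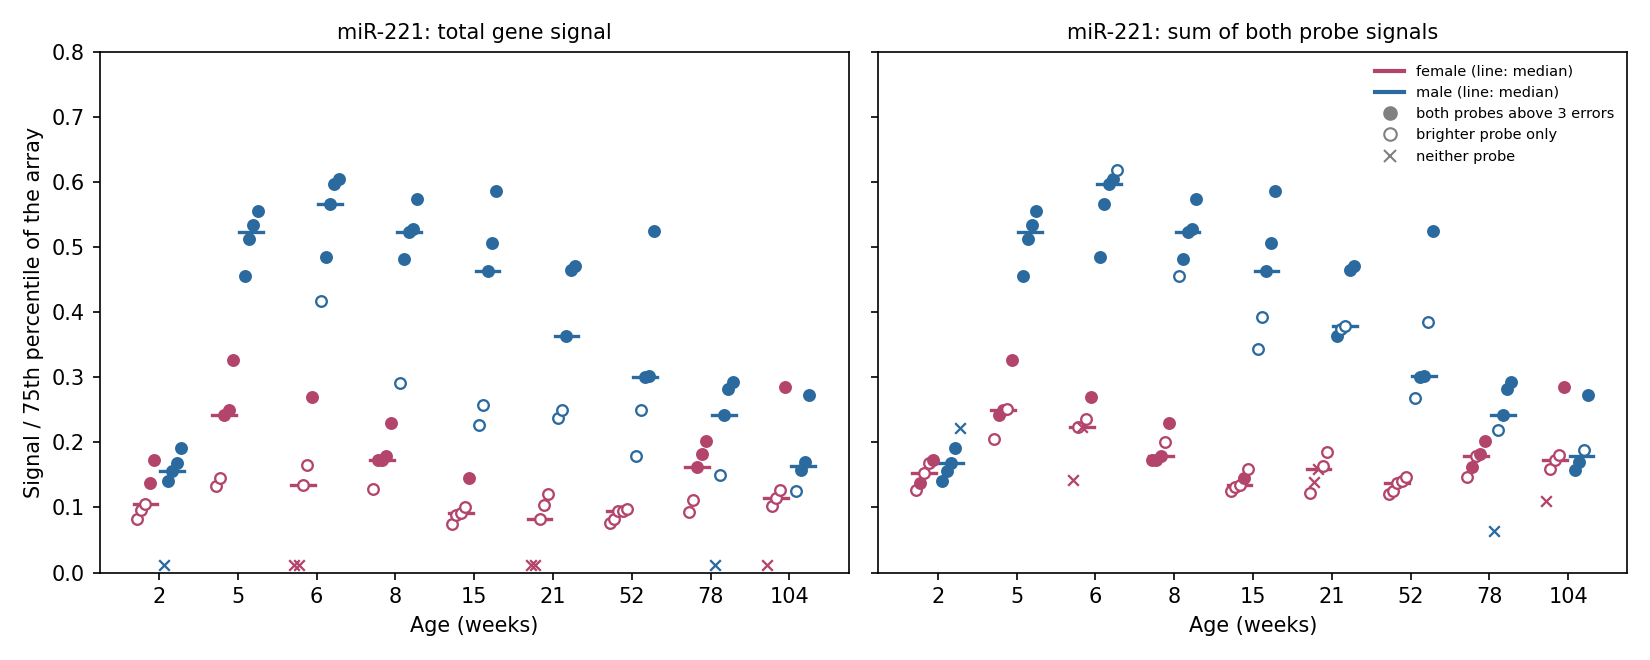
miR-221 on each of the 88 arrays by age and sex, as the total gene signal (left) and the sum of both probe signals (right), each divided by the array's 75th percentile; lines are group medians, and the marker shows how many probes were above 3 errors. Adult males lie between 0.343 and 0.618 on the right, above all adult females (0.122 to 0.326), and the sexes overlap at 2, 78 and 104 weeks, at 78 weeks on the right through 1 male alone.

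Males exceeded females at 3 of the 9 ages in the limma fit of all 88 arrays, where a call needed 1.5-fold and a p under 0.05 after Benjamini-Hochberg adjustment. The log2 difference was 3.11 ± 0.66 (SE) at 6 weeks (limma adjusted p = 0.00386), where 0.318% of the expressed miRNAs were called higher in males. It was 1.96 ± 0.66 at 15 weeks (limma adjusted p = 0.0371, background 3.18%) and 2.99 ± 0.66 at 21 weeks (limma adjusted p = 0.00104, background 2.55%). The sizes at 6 and 21 weeks include 2 undetected females each, held at the floor. The call at 15 weeks was lost on leaving out any 1 of 8 of its 10 arrays (limma adjusted p up to 0.0754), and that at 6 weeks on leaving out either undetected female, 6-week female 1 or 5 (limma adjusted p = 0.0588 for both).

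At the other ages the test was not passed with the total signal. Males were higher by 1.31 ± 0.70 on the log2 scale at 5 weeks, by 1.43 ± 0.66 at 8 weeks and by 1.72 ± 0.66 at 52 weeks (limma adjusted p = 1.0, 0.234 and 0.0862). Differences were -0.24 ± 0.66 at 2 weeks, -0.16 ± 0.66 at 78 weeks and 0.996 ± 0.70 at 104 weeks, where leaving out the undetected 104-week female 5 gave 0.28. Although the tests at 5, 8 and 52 weeks were not passed, the sexes did not overlap at any of the 6 ages from 5 to 52 weeks. The share of expressed miRNAs without overlap at those ages was 0.637%, 0.637%, 8.28%, 10.2%, 6.37% and 7.32%.

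With the summed probe signal the sex difference was smaller, steadier and called at 6 ages. Its log2 size was 1.03, 1.42, 1.43, 1.70, 1.42 and 1.37 at 5, 6, 8, 15, 21 and 52 weeks, with an SE of 0.22 at 5 weeks and 0.21 at the others, and its largest limma adjusted p was 0.00538, at 5 weeks. Called higher in males at these ages were 0.318%, 0.318%, 1.27%, 3.5%, 2.87% and 4.46% of the expressed miRNAs, so that miR-221 was the 1 miRNA called at 5 and at 6 weeks. Differences of 0.21 at 2 weeks, 0.16 at 78 weeks and 0.15 at 104 weeks did not pass, with 95% intervals of -0.21 to 0.63, -0.25 to 0.58 and -0.29 to 0.59. Without 78-week male 6, whose brighter probe reached 0.639 errors, the difference at 78 weeks was 0.57 (interval 0.23 to 0.91, limma adjusted p = 0.0267), or 1.48-fold and under the 1.5-fold limit. Fitted alone among 733 probes, the brighter probe was called at the same 6 ages and the dimmer probe at 5 of them, with 5 weeks missing (log2 1.005 ± 0.28, limma adjusted p = 0.246).

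**Figure D3:**
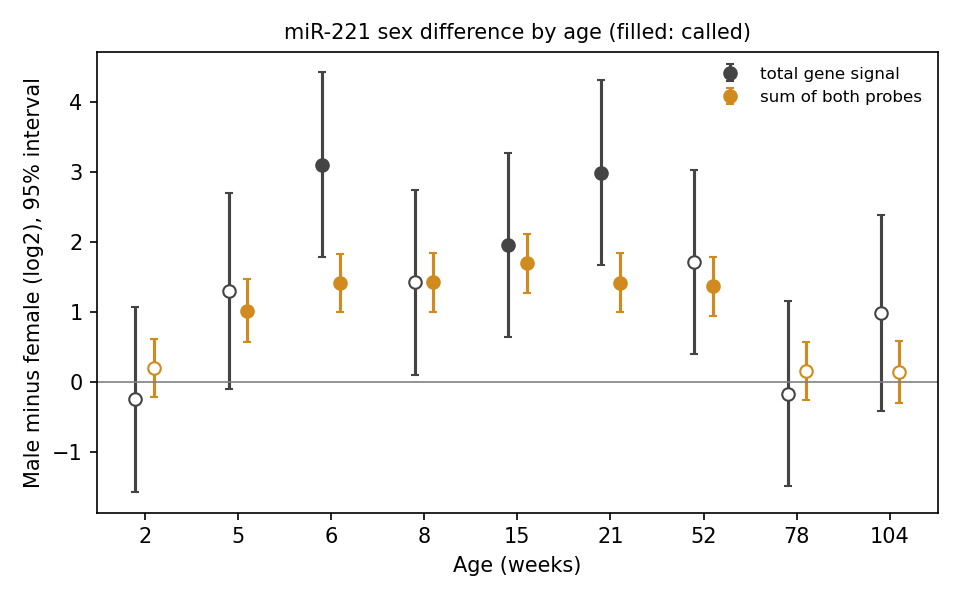
Male minus female log2 difference of miR-221 at each age, with 95% confidence intervals from limma, for the total gene signal (grey) and the sum of both probes (orange); filled points passed an adjusted p under 0.05 and 1.5-fold. The total signal passed at 6, 15 and 21 weeks and the sum at every age from 5 to 52 weeks.

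Averaged over the 5 adult ages, a contrast added after the values were seen, males exceeded females by 2.16 ± 0.30 on the log2 scale with the total signal (4.47-fold, limma adjusted p = 3.82e-08, background 1.27%). This size leans on the 4 undetected females, and the sum of both probes gave 1.40 ± 0.10, or 2.64-fold (limma adjusted p = 6.64e-21, background 1.59%). Summed intensities were 0.493 ± 0.0804 in adult males (SD, n = 24) and 0.191 ± 0.0526 in adult females (SD, n = 25). Ranges of 0.343 to 0.618 and 0.122 to 0.326 left no overlap over the 49 arrays, which held for 0.318% of the expressed miRNAs, that is, for miR-221 alone. With the total signal 19 of 24 adult males were above every adult female.

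The share of arrays with a detectable value did not pass a test between the sexes. From 5 to 104 weeks miR-221 was detected on 37 of 38 male and 35 of 40 female arrays (Fisher's exact test, two-sided, p = 0.201). Both probes passed 3 errors on 18 of 24 adult male and on 9 of 25 adult female arrays. The median 75th percentile was 46.9 on adult male and 57.0 on adult female arrays, and a median of 163 and 178 miRNAs were detected on them; the part of these in the probe counts was not tested. The 7 undetected arrays had 75th percentiles between 28.1 and 54.7, and 4 of them were among the 13 arrays of the scan described next as scan 2.

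Scan times, parted by gaps of over 8 hours, divided the arrays into 5 scans. Scans 2 to 5 each held adults of both sexes, and males were higher in each. The adult difference in log2 total signal was 2.64, 1.57, 2.53 and 2.23 in scans 2 to 5, and that in summed signal 1.11, 1.27, 1.46 and 2.08. Scan 2 held 4 females and 4 males, scan 3 10 and 7, scan 4 9 and 8, and scan 5 2 and 4.

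The course with age differed between the sexes. In males miR-221 varied with age (limma F test over 9 ages, adjusted p = 0.00261, while 54.1% of the expressed miRNAs passed and had a pair of ages called), and it rose from young to adult by 2.17 ± 0.47 on the log2 scale (limma adjusted p = 8.35e-05), as did 29.9% of the expressed miRNAs. Without the undetected 2-week male 3 the rise was 1.42 (limma adjusted p = 0.00442). Its mean went from 0.134 ± 0.0705 (SD, n = 5) to 0.456 ± 0.121 (SD, n = 24). The sum of both probes, in which the undetected 2-week male is measured, gave a rise of 1.49 ± 0.22, or 2.80-fold (limma adjusted p = 1.2e-07, background 44.3%), and passed over all ages (limma adjusted p = 1.42e-08, background 61.8%), against a rise of 0.53 in the median of all expressed miRNAs on that scale.

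In females the change from young to adult was -0.22 ± 0.61 with the total signal and 0.30 ± 0.17 with the sum and did not pass with either (limma adjusted p = 0.898 and 0.139), from a mean of 0.119 ± 0.0366 (SD, n = 5) in young to 0.136 ± 0.0834 (SD, n = 25) in adult females. The difference between the sexes in this change, also tested after the values were seen, was 2.39 ± 0.77 (limma adjusted p = 0.0167, background 23.6%). Without 2-week male 3 it was 1.64 and did not pass (limma adjusted p = 0.0971), whereas the sum, with that animal, gave 1.19 ± 0.22 (limma adjusted p = 2.62e-05, background 20.1%).

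With the sum of both probes, female miR-221 was not flat within the adult ages. The F test over the 9 ages did not pass with the total signal (limma adjusted p = 0.104, background 57.3%) but passed with the sum (limma adjusted p = 5.07e-05, background 60.5%). Summed means were 0.152 ± 0.0197 at 2 weeks, 0.255 ± 0.0441 at 5 weeks, 0.139 ± 0.0132 at 15 weeks and 0.134 ± 0.0109 at 52 weeks (SD, n = 5 each). The step from 2 to 5 weeks was 0.74 ± 0.16 on the log2 scale and the step from 5 to 15 weeks -0.86 ± 0.16 (limma adjusted p = 0.00024 and 0.000114, backgrounds 39.5% and 15.9%). With the total signal these steps were 0.85 ± 0.71 and -1.09 ± 0.71 and did not pass (limma adjusted p = 0.390 and 0.355). The 1 female pair that passed with the total signal was 5 to 21 weeks, at -2.27 ± 0.71 (limma adjusted p = 0.0175, background 12.4%), with 2 females of 21 weeks undetected. Of the 36 pairs of ages, 6 passed in females and 17 in males with the sum, and 1 and 8 with the total signal, where the share of expressed miRNAs called per pair ran up to 55.7%, 60.2%, 51.3% and 50.0%. In neither sex did neighbouring ages from 5 to 104 weeks pass with either value.

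Old males had less miR-221 than adult males. The total signal fell by 1.22 ± 0.32 on the log2 scale (limma adjusted p = 0.0079), and the mean went from 0.456 to 0.233 ± 0.118 (SD, n = 14). With the sum the change was -1.03 ± 0.15 (limma adjusted p = 1.74e-06, background 2.23%), and without 78-week male 6, the lowest summed value of all 88 arrays at 0.0634, it was -0.88 ± 0.11 (limma adjusted p = 1.67e-07). Only 1.27% of the expressed miRNAs were called lower in old males with the total signal, namely miR-221, miR-200b, miR-455* and miR-466b-2*, of which miR-455* is named because it was called. The comparison of 52-week with 21-week males did not pass (-0.24 ± 0.25 with the sum, limma adjusted p = 1.0), whereas males of 78 and 104 weeks were below those of 21 weeks by 1.07 and 1.08 on the log2 scale with the sum (limma adjusted p = 0.0126 and 0.00737). Without 78-week male 6 the first of these was -0.66 ± 0.17 and still passed (limma adjusted p = 0.0192). With the total signal those 2 changes were -1.41 and -0.98, and neither passed (limma adjusted p = 0.307 and 0.496).

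In females the change from adult to old was 0.07 ± 0.41 with the total signal and -0.22 ± 0.12 with the sum, and neither passed (limma adjusted p = 1.0 and 0.250). The difference between the sexes in this change was -1.29 ± 0.52 with the total signal and did not pass (limma adjusted p = 0.425). It was -0.81 ± 0.20 with the sum, which passed (limma adjusted p = 0.00748, background 3.5%), and -0.67 ± 0.17 without 78-week male 6 (limma adjusted p = 0.00697). Over the 3 old ages males exceeded females by 0.85 ± 0.39 with the total signal (limma adjusted p = 0.169). The sum gave 0.56 ± 0.12, or 1.48-fold, which was under the 1.5-fold limit, and 0.70 ± 0.10 without 78-week male 6 (1.62-fold, limma adjusted p = 1.81e-08).

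Among the expressed miRNAs, the adult sex difference of miR-221 stood at one end. In the mean over adult ages 5.41% of them passed, 1.27% higher in males and 4.14% higher in females. With the sum 2.87% passed, 1.59% higher in males and 1.27% higher in females, so that the excess of calls higher in females was absent there. Besides miR-221, those higher in males were miR-200b, an epithelial miRNA, by 0.79 ± 0.15, and the red-cell miRNAs miR-451 by 0.64 ± 0.12 and miR-144 by 0.75 ± 0.23 on the log2 scale. These 4 were also called higher in males with the sum, which added miR-1949, named because it was called. miR-221 had the largest difference in size of all expressed miRNAs with the total signal and with the sum, and ranked 3 by the size of its limma statistic with the total signal and 1 with the sum.

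**Figure D4:**
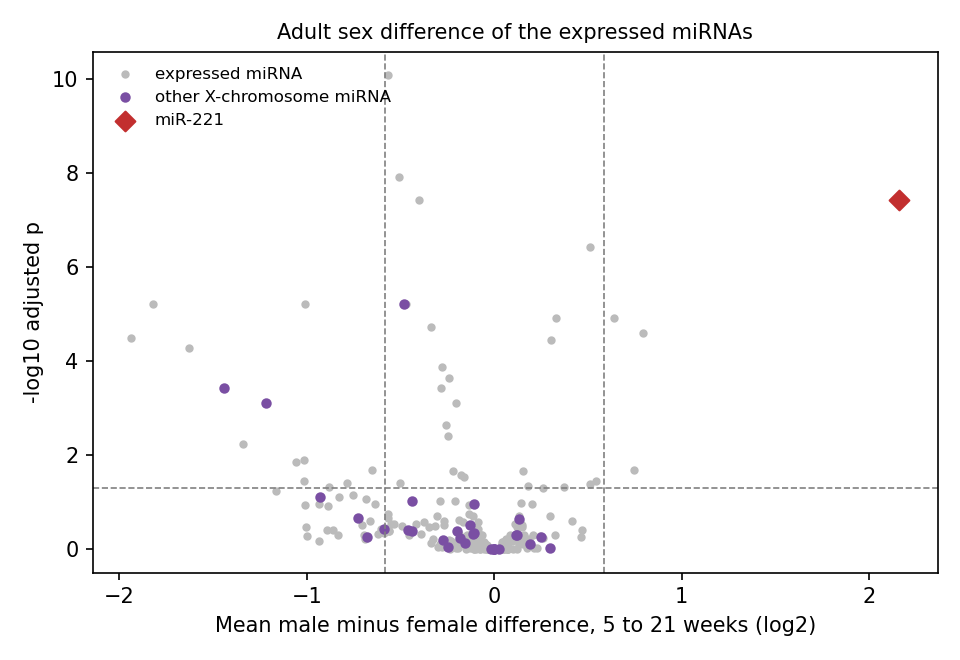
Mean male minus female log2 difference over 5 to 21 weeks against -log10 of the limma adjusted p for the expressed miRNAs, from the total gene signal; dashed lines mark 1.5-fold and an adjusted p of 0.05. miR-221 (red, 2.16) stands apart to the right, and none of the 30 other X-chromosome miRNAs (purple) was called higher in males.

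The other miRNAs of the X chromosome were counted because the pair lies there. RefSeq gave a position for 283 of the expressed miRNAs, and 31 of them, miR-221 included, lay on the X chromosome alone. In adults 0 of the 30 others were called higher in males by limma, 0 at an unadjusted p under 0.05, and 2 were called lower, with 7 lower at an unadjusted p under 0.05. Of all expressed miRNAs 1.27% were called higher in males and 4.14% lower, so the calls among the 30 are near that background, and 5.41% were higher and 15.9% lower at an unadjusted p under 0.05. The 2 called lower were miR-374 (-1.22 ± 0.28) and miR-505* (-1.44 ± 0.32). With the sum miR-374 was -0.61 and miR-505* -0.52, and miR-374 alone was called, beside 1.27% of all expressed miRNAs called lower. The median difference of the 30 was -0.14, against -0.03 over all expressed miRNAs. From young to adult, 7 of the 30 rose and 4 fell in males, and 3 rose and 4 fell in females. Of all expressed miRNAs 29.9% rose and 19.7% fell in males over that step, and 22.9% rose and 16.9% fell in females. With the sum 15 of the 30 rose and 6 fell in males, beside 44.3% and 17.8% of all expressed miRNAs, and 9 rose and 5 fell in females, beside 33.4% and 17.2%.

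Other miRNAs linked to growth were counted beside miR-221. The growth-linked list holds the miR-17-92 and miR-106b-25 cluster miRNAs, which promote the cell cycle, with miR-21, miR-31, miR-130b and miR-155, and 12 of its 13 names were on the array and expressed. In adults 0 of the 12 differed between the sexes by limma, with 2 higher and 3 lower in males at an unadjusted p under 0.05, where 5.41% of all expressed miRNAs were higher and 15.9% lower. An adjusted p under 0.05 without 1.5-fold was reached by 3 of the 12, and by 13.1% of all expressed miRNAs at any fold. They were miR-21, higher in males by 0.51 ± 0.08 (limma adjusted p = 3.81e-07), miR-25, higher by 0.15 ± 0.05 (limma adjusted p = 0.0223), and miR-17-5p, named after its value was seen, which was lower in males at -0.20 ± 0.05 (limma adjusted p = 0.000802). The sum also called 0 of the 12, beside 1.59% of all expressed miRNAs called higher in males and 1.27% lower. The median of the 12 was -0.01, against -0.03 for all.

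From young to adult, males raised 3 of the 12, miR-21 by 2.53 ± 0.14, miR-31 by 1.59 ± 0.11 and miR-25 by 0.66 ± 0.07, and 0 fell with the total signal, where 29.9% of all expressed miRNAs rose and 19.7% fell. With the sum the same number rose, and 1 fell, miR-18a of the miR-17-92 cluster, at -0.86 ± 0.35. Of all expressed miRNAs 44.3% rose and 17.8% fell in males with the sum. Females raised 2 and lowered 1 of the 12 with either signal, where 22.9% rose and 16.9% fell with the total signal and 33.4% and 17.2% with the sum. The shares of this list called as rising thus lay below or near those of all expressed miRNAs. The median change of the 12 with the total signal was 0.33 in males and 0.05 in females, against 0.13 for all in both sexes. From adult to old 0 of the 12 were called in males by limma, with 1 higher and 4 lower at an unadjusted p under 0.05. Of all expressed miRNAs 3.82% were called higher and 1.27% lower in that comparison, and 11.5% were higher and 7.32% lower at an unadjusted p under 0.05. With the sum 1 was called lower in males, miR-18a at -0.74 ± 0.24 (limma adjusted p = 0.0333), where 2.23% of all expressed miRNAs were called lower. In females 1 was called lower with the total signal, miR-18a at -0.61 ± 0.14, where 2.87% of all expressed miRNAs were called lower. With the sum miR-18a was -0.50 ± 0.10 in females, under the 1.5-fold limit, and 0 of the 12 were called, where 3.18% of all were called lower. At an unadjusted p under 0.05, 1 was higher and 7 were lower in females with the total signal, beside 11.8% and 8.92% of all expressed miRNAs. The medians of the 12 in the 2 adult to old changes were -0.14 and -0.29, against 0.00 for all.

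The list of growth brakes holds 9 miRNAs that restrain the cell cycle, and all were expressed. In adults 0 of the 9 differed between the sexes by limma, beside 1.27% of all expressed miRNAs called higher in males and 4.14% lower, with 1 higher and 1 lower at an unadjusted p under 0.05, beside 5.41% and 15.9%. From young to adult, 8 of the 9 rose in males, among them miR-195 by 2.32 ± 0.16, miR-34a by 1.90 ± 0.15 and miR-122 by 1.19 ± 0.09, and 4 of the 9 rose in females, where 29.9% of all expressed miRNAs rose in males and 22.9% in females. From adult to old 1 of the 9 rose in each sex, where 3.82% of all expressed miRNAs rose in males and 1.59% in females. That 1 was miR-34a, a target of p53, by 1.64 ± 0.10 in males, over the same ages at which male miR-221 fell. In females miR-34a rose by 0.94 ± 0.11 with the sum, and the change of female miR-221 did not pass. The counts of this list called with the sum were equal to those with the total signal.

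Markers of other cells in the liver were compared between adult males and females, because whole tissue was sampled and fewer cells of a type cannot be told apart from less RNA per cell. Beside the counts stand the shares of all expressed miRNAs, with 1.27% called higher in adult males and 4.14% lower, and 5.41% and 15.9% at an unadjusted p under 0.05. The sum called as many of each list as the total signal, beside 1.59% of all expressed miRNAs called higher in adult males and 1.27% lower. The endothelial miR-126 and miR-126* summed to between 14.7 and 24.0 in females and between 17.0 and 23.8 in males, and 0 of 2 were called by limma. None of the hepatocyte (3), leukocyte (5 of the 6 listed), stellate and smooth muscle (4) or skeletal muscle (5) miRNAs were called, and at an unadjusted p under 0.05 the count was 0, 0, 0 and 1. Both red-cell miRNAs were higher in adult males, with a summed level of 7.14 to 21.1 (median 11.1) against 4.17 to 19.1 (median 6.81) in females. Of the 5 biliary miRNAs 1 was called, miR-200b, and the 5 summed to 1.06 to 5.26 (median 2.83) in adult males and 0.534 to 4.22 (median 1.91) in adult females. The part of the red-cell and biliary miRNAs in the miR-221 difference was not tested.

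In old males, miR-200b was lower than in adult males by 0.79 ± 0.22, and the biliary sum was 0.535 to 4.64 (median 1.85). In females the biliary sum had a median of 1.91 in adult and 1.43 in old livers. Of the 5 biliary miRNAs 1 was called lower in males and 0 in females, beside 1.27% and 2.87% of all expressed miRNAs. At an unadjusted p under 0.05, 2 were lower in males and 1 in females, beside 7.32% and 8.92%. The red-cell miRNAs did not pass in that comparison, with a change of 0.11 ± 0.15 for miR-451. The endothelial sum was 14.1 to 22.9 in old males, and that of the leukocyte miRNAs 13.2 to 30.5, against 11.6 to 18.6 in adult males.

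The miRNAs most like miR-221 over the 88 arrays were sought among the 141 others detected on at least 80 arrays. With the total signal, Pearson's r was 0.54 for miR-96, 0.45 for miR-100, 0.40 for miR-200b, 0.39 for miR-466b-2* and 0.38 for miR-16. With the summed signal of miR-221 it was 0.57 for miR-96, 0.56 for miR-25, 0.54 for miR-15b, 0.54 for miR-466b-2* and 0.51 for miR-200b. miR-96, miR-200b and miR-466b-2* were in both sets of 5. After the mean of each age and sex group was removed, r of the summed signal was 0.59 with miR-96, 0.25 with miR-25, 0.48 with miR-15b, 0.57 with miR-466b-2* and 0.59 with miR-200b. That of the total signal was 0.66 with miR-96 and between 0.34 and 0.37 with the other 4. These values are a description over arrays that share their scaling, and no such list exists for the undetected miR-222. Undetected values entered at the floor, on 7 arrays for the total signal of miR-221. miR-96 was detected on 82 of the 88 arrays and miR-466b-2* on 86. The part of arrays at the floor in these correlations was not tested.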

How the data were processed

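Liver miRNA of 88 rats was measured on one-colour Agilent arrays. The authors deposited scanner output of Feature Extraction 10.7, in which spot, probe and total gene signals are linear intensity values after background subtraction, with 0.1 for undetected, and a table of ratio values, the signal over the 75th percentile of the array. Total signals were read here by probe name, scaled by the value of rank 236 among the expressed miRNAs of the array, floored at 0.0120 and log2-transformed. Of 15763 detected values, 1 differed from the deposited table by over 0.01 percent, and 0 of miR-221. No spot of either miRNA was saturated, and 17 arrays used a later design file.

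Groups were compared with limma 3.58.1 in R 4.3.3 over all expressed miRNAs without a block, at an adjusted p under 0.05 and 1.5-fold; interactions used the adjusted p alone. Detection was compared by Fisher's exact test (scipy 1.17.1). The fit was tested on simulated normal values with known changes. These had no detection floor and no probes dropping out, so the test does not cover either. The replicate numbers of the labels were not taken to pair animals. Of 33 pairs 17 correlated above 0.1 (median r 0.105, range -0.69 to 0.74), which cannot decide whether they do. Alternatives changed the scaling, background, floor, filter, block, test, probes summed and arrays. normexp, with an offset of 50, used the median spot signal, since the files analysed hold no mean signal.

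The miRNAs, lists and tests were chosen with earlier results of these data known. The naming rule gave the pair, the 5 miRNAs most correlated with miR-221, at most 4 of the growth-linked and growth-brake lists, and cell type markers. Beyond that rule others were named for being called, and miR-17-5p after its value was seen. The authors' processing batches are not given by sample in the sources used here.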

Additional observations from a re-analysis of the deposited data

Results flagged for a closer look

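Within-group values far from the rest were looked for in 36 sets (18 groups, each with the total and the summed signal), and 4 were found, where chance alone gives about 1 in 20. The log2 total signal was lowest and isolated at -6.38, the floor, in 2-week male 3 and in 78-week male 6. The log2 summed signal of 78-week male 6 was isolated too, at -3.98 (normalized 0.0634), and its brighter probe reached only 0.639 errors. That of 2-week male 3 was not. The log2 total signal of 8-week male 5 was isolated at -1.78 (normalized 0.292), where only the brighter probe was counted, and its summed signal of 0.455 was not.

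The sexes differed in the change from young to adult by 2.39 on the log2 scale with the total signal (limma adjusted p = 0.0167) and by 1.19 with the sum of both probes (limma adjusted p = 2.62e-05), and in the change from adult to old by -0.81 with the sum (limma adjusted p = 0.00748). The cause was not tested.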

How the results depend on the processing

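Over all alternatives run, the sex difference of miR-221 over adult ages, miR-221 young to adult in males and miR-221 adult to old in males kept their direction, and each lost its call under at least 1 alternative. With the percentile over miRNAs detected on all arrays, miR-221 by age in females passed (limma adjusted p = 0.0204), miR-221 adult to old in females was -0.18, the sex difference of miR-221 over old ages passed (0.98), the sex by young to adult interaction of miR-221 did not (1.86), and the sex differences at 2 and 78 weeks were 0.10 and 0.20. With the percentile over all miRNAs, miR-221 young to adult in females was 0.33, and adult to old in males did not pass (-1.38). With normexp, whose offset compresses differences, young to adult was 0.18 in females and 0.41 in males, adult to old -0.0177 in females and -0.16 in males, and the adult sex difference 0.26 (limma adjusted p = 1.12e-07), so that both male calls and the adult sex call were lost to the 1.5-fold limit. The young to adult interaction was 0.23 and did not pass, and the sex differences at 2, 78 and 104 weeks 0.0219, 0.11 and -0.0334. Limma then called 0 ages, with 2 under an adjusted and 6 under an unadjusted p of 0.05. With quantile normalization, age in females passed (limma adjusted p = 0.0158), young to adult and adult to old in females were 0.63 and -0.11, the sex difference of miR-221 at 2 weeks 0.0139 and that at 78 weeks 0.39, the old difference passed (1.07), and 5 ages were called. The scaling moved the median male change from young to adult over all expressed miRNAs from 0.13 to -0.28 (detected on all arrays) and 0.62 (all miRNAs).

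With undetected values at the raw minimum, at the lowest value of the array or left out, miR-221 by age in females passed (limma adjusted p = 0.0210, 0.00417 and 0.000536), miR-221 young to adult in females was 0.0621, 0.18 and 0.36, miR-221 adult to old in females -0.10, -0.15 and -0.28, the difference at 2 weeks 0.25, 0.29 and 0.51 and at 78 weeks 0.22, 0.54 and 0.70, the old difference passed at 0.87, 0.92 and 0.90, and 5, 5 and 6 ages were called. The sum of both probes gave 5.07e-05, 0.30, -0.22, 0.21 and 0.16 for the first 5 of these, 6 ages called, and an adult to old interaction that passed (-0.81). With scan as a block, age in females passed (limma adjusted p = 0.0319), adult to old in females was -0.0446 and the sex difference of miR-221 at 78 weeks 0.0666. The replicate block changed no call (sex difference of miR-221 over adult ages 2.18), and the numbers were not taken to pair animals. The methods' test lost the calls at 6 and 21 weeks and made them at 8 and 52 weeks. Over the 14 alternatives for each age, the sex calls at 6, 15 and 21 weeks were each lost under 2. Sex calls at 5, 8 and 52 weeks were made under 2, 7 and 10 of the 14. The cause of these changes was not tested.

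Leaving out 1 array gave 2 to 4 ages called, a limma adjusted p of 0.0346 to 0.225 for miR-221 by age in females (passing without 104-week female 5 or 6-week female 2), adult to old in females of -0.0514 to 0.30, a young to adult interaction of 1.64 to 2.64, an old difference of 0.61 to 1.14 (passing without 78-week male 6), and differences of 2.52 to 3.64 at 6 weeks, 1.81 to 2.15 at 15 weeks, -0.49 to 0.51 at 2 weeks, -0.45 to 0.70 at 78 weeks and 0.28 to 1.42 at 104 weeks. miR-221 young to adult in males ran from 1.42 to 2.42. The co-variation of miR-221 with miR-222 and their ratio were not run, because miR-222 was undetected on all arrays.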
